A study of Mus musculus with 9 samples.

Results

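The genes of the hemidesmosome and of laminin-332, with which basal keratinocytes hold to the basement membrane, were followed in the epidermis of mouse ears. The 9 genes, Itga6, Itgb4, Itga3, Itgb1, Col17a1, Dst, Plec, Lama3 and Lamb3, were found by their symbols among 52550 genes of the count table, and all 9 had enough counts to be tested in every comparison. RNA sequencing covered 9 libraries of epidermal sheets from wild type C57BL/6 mice aged 8 weeks, with 3 libraries in each of 3 groups. The control group received Vaseline on the ears for 5 days and ddH2O by gavage for 10 days (VAS + H2O). In the model group (IMQ + H2O), Vaseline was replaced by imiquimod, which activates Toll-like receptor 7 and induces psoriasis-like dermatitis. The third group received imiquimod and, by gavage, 200 μl of Xiao-Yin-Fang decoction at 23.3 mg/g, a mixture of medicinal herbs (IMQ + XYF). Gavage began 5 days before the cream in all groups, once a day by the labels and the methods and more often by the legends of the study. The mice were male, and the sheets came from 2 mice, without a statement of whether this is per library, so p-values measure the spread between these libraries, which may in part be technical.

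Hemidesmosomes are the rivets of the epidermis. Integrin α6β4 spans the basal membrane of the keratinocyte, plectin and the epithelial form of dystonin (BPAG1e) tie its inner side to the keratins 5 and 14, and collagen XVII crosses the membrane beside it. On the outer side the integrin binds laminin-332, a trimer whose α3 and β3 chains are encoded by Lama3 and Lamb3, which collagen VII anchors to the dermis. Integrin α3β1 binds the same laminin but sits in focal adhesions and at the sides of basal cells, where it serves adhesion and migration. Loss of single members of this chain causes forms of blistering skin disease, and collagen XVII and BPAG1e are the antigens of bullous pemphigoid.

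Sequences just upstream of transcription starts are shown for members with an entry in the RefSeq promoter table (GRCm38.p6). They let 2 of the several annotated starts of Dst and the members that moved in opposite directions be set side by side. Itgb1, which passed no test, is shown as the partner of Itga3. Windows are printed for 5 of the 9 members, and Itga6, Itgb4, Plec and Lama3 are named only. Each line gives the coding strand, 5′ to 3′, of up to 250 bases before a RefSeq start, ended where the annotation begins an exon of the gene. The windows are, in the order of the lines, chr1:34160010-34160259 (+), chr1:34011345-34011594 (+), chr1:193301744-193301992 (+), chr19:47692095-47692292 (-), chr11:95076802-95076964 (-) and chr8:128685404-128685653 (+). Capitals mark GGGCGG (a GC box) and TATAAA, searched on both strands.
Dst, start of the epithelial transcripts: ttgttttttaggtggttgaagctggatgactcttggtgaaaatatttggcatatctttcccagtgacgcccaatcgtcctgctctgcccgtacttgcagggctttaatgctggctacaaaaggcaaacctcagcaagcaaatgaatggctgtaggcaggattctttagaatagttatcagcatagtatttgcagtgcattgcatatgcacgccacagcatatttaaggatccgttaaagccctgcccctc
Dst, start of the longer transcripts: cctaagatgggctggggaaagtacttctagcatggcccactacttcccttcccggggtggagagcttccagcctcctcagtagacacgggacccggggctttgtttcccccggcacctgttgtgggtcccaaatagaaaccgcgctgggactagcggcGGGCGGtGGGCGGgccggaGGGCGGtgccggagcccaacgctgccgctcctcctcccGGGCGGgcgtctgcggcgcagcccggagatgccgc
Lamb3: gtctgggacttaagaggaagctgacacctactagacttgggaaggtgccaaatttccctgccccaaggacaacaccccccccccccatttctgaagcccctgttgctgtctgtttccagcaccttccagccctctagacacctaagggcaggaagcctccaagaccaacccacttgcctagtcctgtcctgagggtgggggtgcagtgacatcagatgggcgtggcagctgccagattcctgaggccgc
Col17a1: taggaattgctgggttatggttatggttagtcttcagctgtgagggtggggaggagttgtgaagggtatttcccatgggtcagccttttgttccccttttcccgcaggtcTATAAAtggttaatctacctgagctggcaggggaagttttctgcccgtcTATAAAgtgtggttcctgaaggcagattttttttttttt
Itga3: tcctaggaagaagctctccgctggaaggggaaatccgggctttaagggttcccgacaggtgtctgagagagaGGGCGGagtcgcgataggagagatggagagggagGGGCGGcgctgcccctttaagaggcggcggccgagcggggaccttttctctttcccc
Itgb1: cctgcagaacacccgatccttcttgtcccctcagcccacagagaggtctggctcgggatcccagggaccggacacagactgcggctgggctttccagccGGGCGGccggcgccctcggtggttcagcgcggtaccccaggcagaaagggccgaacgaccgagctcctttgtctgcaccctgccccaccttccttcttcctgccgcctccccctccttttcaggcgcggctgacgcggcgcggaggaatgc

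The window before the epithelial start of Dst and the windows of Lamb3 and Col17a1, 3 members that were lower after imiquimod, held no GGGCGG, and that of Col17a1 held TATAAA 2 times. The other window of Dst, before longer transcripts of the same gene, held GGGCGG 4 times. That of Itga3 held it 2 times in the stretch printed and that of Itgb1 1 time. Another window of Itga3, chr11:95069199-95069448 (-), is not printed and held GGGCGG 1 time. A further window of Lamb3, chr1:193301993-193302242 (+), begins in an exon, is not printed and held neither motif. Over all 32851 windows of 250 bases in the table, 32.7% held GGGCGG and 12.4% held TATAAA, so these matches describe the windows and are no evidence of a factor. In the annotation, the transcripts Dst-213, Dst-215 and Dst-217 start at position 34160330, and the longest product of this start has 5175 residues, whereas the start furthest upstream gives one of 7717 residues. The shorter Dst-213 encodes 2639 residues. The window printed for the longer transcripts lies near the start of Dst-202, with 5379 residues, and not at the start furthest upstream. Gene counts cannot tell these transcripts apart.

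The libraries held 30298275 to 64771160 counts, and the members had between 3687 and 135071 counts in a library, so counting error was small beside the spread between libraries. Levels are given as CPM, counts over a library size that was scaled by the trimmed mean of M-values (TMM). The label was borne out by the markers of keratinocytes, since all 5 basal and all 6 suprabasal markers were found in every library, summing to 13930 to 22696 and 29868 to 48932 CPM. Other cell types were not absent. The 7 fibroblast markers summed to 99.6, 718 and 135 CPM in VAS + H2O, 57.3 to 58.9 in IMQ + H2O and 94.3 to 242 in IMQ + XYF, and the 7 cartilage markers, with Matn1 at 0 in every library, to 174, 402 and 182 CPM, 34.1 to 78.2 and 121 to 183. VAS + H2O replicate 2 stood apart, with a muscle sum of 134 CPM against 3.21 to 39.9 in the other libraries. The 7 leukocyte markers summed to 66.0 to 75.1 CPM in VAS + H2O, 153, 211 and 1079 in IMQ + H2O and 295 to 467 in IMQ + XYF. S100a8, which keratinocytes also make, gave most of the rise, with 1.09 to 2.14 CPM in VAS + H2O and 105, 141 and 983 in IMQ + H2O, while Cd3e, of T cells, fell by 0.73 on the log2 scale (adjusted p = 0.0209 by edgeR). The 6 Schwann cell and 7 endothelial markers stayed within 52.1 to 101 and 4.65 to 14.1 CPM.

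The first comparison asked how the model differs from control epidermis. After imiquimod the attachment genes did not move as a block. Of the 9 members, Dst, Lamb3 and Col17a1 fell and Itga3 rose, while Itga6, Itgb4, Itgb1, Plec and Lama3 did not pass the test. A gene passed at an adjusted p of at most 0.05 in the quasi-likelihood test of edgeR with Benjamini-Hochberg adjustment over all genes tested. Over 18009 genes, 12.7% passed as higher and 9.41% as lower in IMQ + H2O, against 1 and 3 of the 9 members. The groups did not overlap for 6 members, Itga3, Itgb1, Col17a1, Dst, Lama3 and Lamb3, as they did not for 44.5% of 18492 genes. In this fit no member reached the absolute log2 fold change of 1 that, with the adjusted p, made a gene a DEG in the study, as 7.68% of all genes did. The median log2 fold change was -0.19 over the members and -0.03 over all genes tested.

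**Figure D1:**
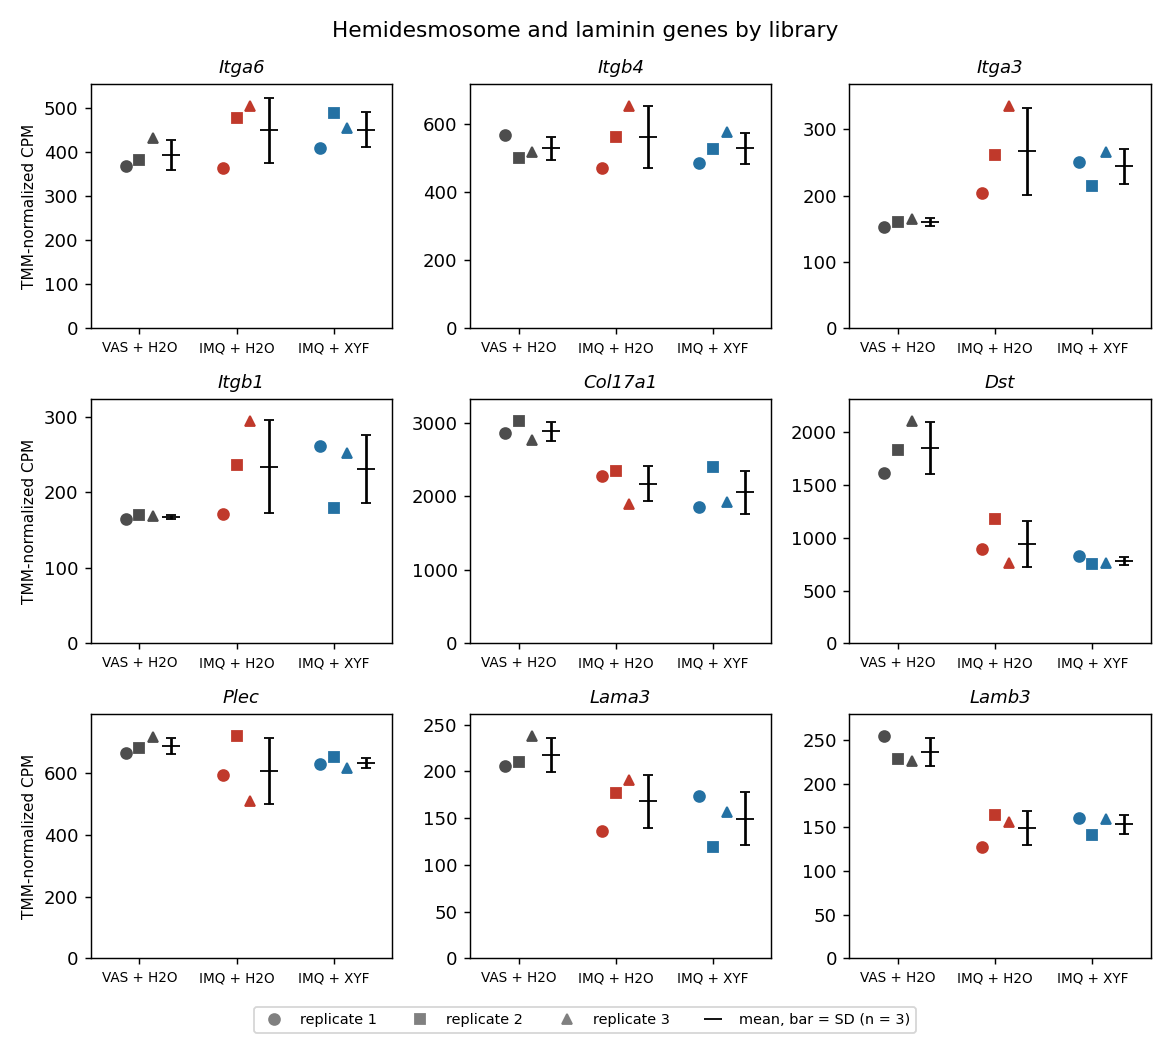
Each panel plots 1 gene, with the group on the x axis and the TMM-normalized CPM, from 0, on the y axis. Symbols are the 3 libraries of a group, and the black bar is their mean ± SD (n = 3). Dst lies between 1611 and 2103 CPM in VAS + H2O and between 755 and 1176 in the 6 libraries with imiquimod, while Itga6 and Itgb4 overlap in all groups.

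Neither chain of the core integrin of the hemidesmosome passed the test in any comparison. Itga6 (ENSMUSG00000027111, chr2:71745616-71858416), the α6 chain, had 368, 383 and 433 CPM in VAS + H2O, 365, 479 and 505 in IMQ + H2O and 410, 490 and 455 in IMQ + XYF. After imiquimod the log2 fold change was 0.18, with a 95% interval of -0.15 to 0.50 and an adjusted p of 0.395 by edgeR. The libraries of the groups overlapped, and IMQ + H2O replicate 1 was the lowest of all 9. Itgb4 (ENSMUSG00000020758, chr11:115974709-116008412), the β4 chain whose long cytoplasmic tail binds plectin, had 567, 500 and 516 CPM in VAS + H2O, 469, 563 and 653 in IMQ + H2O and 484, 527 and 575 in IMQ + XYF. The log2 fold change was 0.08 (-0.23 to 0.39, adjusted p = 0.704). The intervals do not show that the levels were equal. The ratio of the partners within a library does not depend on scaling. The log2 ratio of Itga6 to Itgb4 counts was -0.42 ± 0.19 in VAS + H2O and -0.32 ± 0.08 in IMQ + H2O (SD, n = 3), a difference of 0.10 with an exact two-sided permutation p of 0.4, where 3 libraries against 3 cannot go below 0.1.

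The laminin-binding integrin α3β1 was higher after imiquimod for its α chain. Itga3 (ENSMUSG00000001507, chr11:95044474-95076801) had 153, 160 and 165 CPM in VAS + H2O and 205, 262 and 335 in IMQ + H2O. All libraries of the model group lay above all controls, but their own spread was wide, with an SD of 65.5 CPM against 5.99. The rise was 1.66-fold (log2 0.73 ± 0.17 SE, adjusted p = 0.0280 by edgeR). The call was lost without VAS + H2O replicates 1, 2 or 3 or IMQ + H2O replicate 2, at adjusted p of 0.0860, 0.0818, 0.0576 and 0.0549. Itgb1 (ENSMUSG00000025809, chr8:128685654-128733200), the shared β chain of many integrins, had 165, 170 and 169 CPM in VAS + H2O and 172, 236 and 294 in IMQ + H2O. Its log2 fold change of 0.47 did not pass (adjusted p = 0.111), although without IMQ + H2O replicate 1, the lowest of its group, it was 0.69 (adjusted p = 0.0296). The log2 ratio of Itga3 to Itgb1 was -0.07 ± 0.04 in VAS + H2O and 0.20 ± 0.05 in IMQ + H2O, without overlap, and the exact two-sided permutation p was 0.1, the smallest possible, or 0.45 adjusted over the 9 ratio tests. The order of the IMQ + H2O libraries in Itga3 and Itgb1 was that of their leukocyte marker sums, highest in replicate 3, whereas in IMQ + XYF replicate 2, with the highest sum, had the lowest level of both genes. S100a8, which keratinocytes also make, gave most of these sums, with 290, 411 and 241 CPM in IMQ + XYF. Of the other leukocyte markers there, Ptprc, Cd52, Lyz2, Cd207 and Itgam were highest in replicate 1 and Cd3e in replicate 2. The part of other cells in the values of Itga3 and Itgb1 was not tested.

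On the inner side of the hemidesmosome, Dst, which encodes BPAG1e, passed the test and Plec, which encodes the related linker plectin, did not, and the difference between them was not tested. Dst (ENSMUSG00000026131, chr1:33908225-34308661) had 1611, 1829 and 2103 CPM in VAS + H2O and 891, 1176 and 756 in IMQ + H2O. Every model library was below every control. Dst fell 1.98-fold, by 0.99 on the log2 scale (SE 0.18, 95% interval -1.42 to -0.56, adjusted p = 0.0150 by edgeR), and 8.16% of all genes tested had a lower log2 fold change. Without IMQ + H2O replicate 1 the adjusted p was 0.0540. Without VAS + H2O replicate 2, the library with the highest muscle, cartilage and fibroblast sums, it was 0.0474 at an almost equal fold. Plec (ENSMUSG00000022565, chr15:76170974-76232574) had 664, 681 and 716 CPM in VAS + H2O and 594, 718 and 507 in IMQ + H2O, with a log2 fold change of -0.19 (-0.51 to 0.12, adjusted p = 0.326). The model libraries lay on both sides of the controls. Muscle and neurons also use forms of these genes. Dst was 1829 CPM in the control with the muscle signal and 1611 and 2103 in the other controls. The part of other cells in the values of Dst and Plec was not tested.

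Collagen XVII, the transmembrane collagen of the hemidesmosome, was the member with the highest level per length. Col17a1 (ENSMUSG00000025064, chr19:47646344-47692094) had 2858, 3024 and 2769 CPM in VAS + H2O and 2273, 2339 and 1896 in IMQ + H2O, so that the groups did not overlap. It fell 1.34-fold, by 0.42 on the log2 scale (SE 0.11, adjusted p = 0.0375 by edgeR). With any 1 of the 6 libraries left out the call was lost, at adjusted p of 0.0685 to 0.0992, as it was with no low-count filter (log2 fold change -0.39, adjusted p = 0.0700). Per kilobase of annotated exon, Col17a1 stood at 480, 361 and 342 CPM in VAS + H2O, IMQ + H2O and IMQ + XYF. Itgb4 was next with 75.2, 80.0 and 75.4 CPM per kilobase, and Lama3 was lowest with 20.2, 15.6 and 13.9. In VAS + H2O the other members lay between 28.0 (Itga3) and 44.9 (Dst), where Dst, Itga6 (43.7) and Itgb1 (41.1) did not differ beyond the SD of their libraries, nor did Plec (37.9) and Lamb3 (35.7), and the value of Dst divides by 41155 bases of exon from all its transcripts, more than the epithelial forms hold.

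Of the 2 members that encode chains of laminin-332, the ligand, Lamb3 passed the test after imiquimod and Lama3 did not. Lamb3 (ENSMUSG00000026639, chr1:193207699-193343878) had 255, 229 and 226 CPM in VAS + H2O and 127, 164 and 157 in IMQ + H2O, and the groups lay far apart. The fall was 1.60-fold, or 0.67 on the log2 scale (SE 0.11, adjusted p = 0.0122 by edgeR), and Lamb3 alone among the members kept its call whichever library was left out, at adjusted p of 0.0227 to 0.0433. Lama3 (ENSMUSG00000024421, chr18:12333819-12583013) had 205, 209 and 238 CPM in VAS + H2O and 136, 177 and 191 in IMQ + H2O. The groups did not overlap, but its log2 fold change of -0.38 did not pass (adjusted p = 0.0877). The log2 ratio of Lama3 to Lamb3 was -0.12 ± 0.19 in VAS + H2O and 0.16 ± 0.11 in IMQ + H2O, a difference of 0.28 (exact two-sided permutation p = 0.1, adjusted 0.45).

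**Figure D2:**
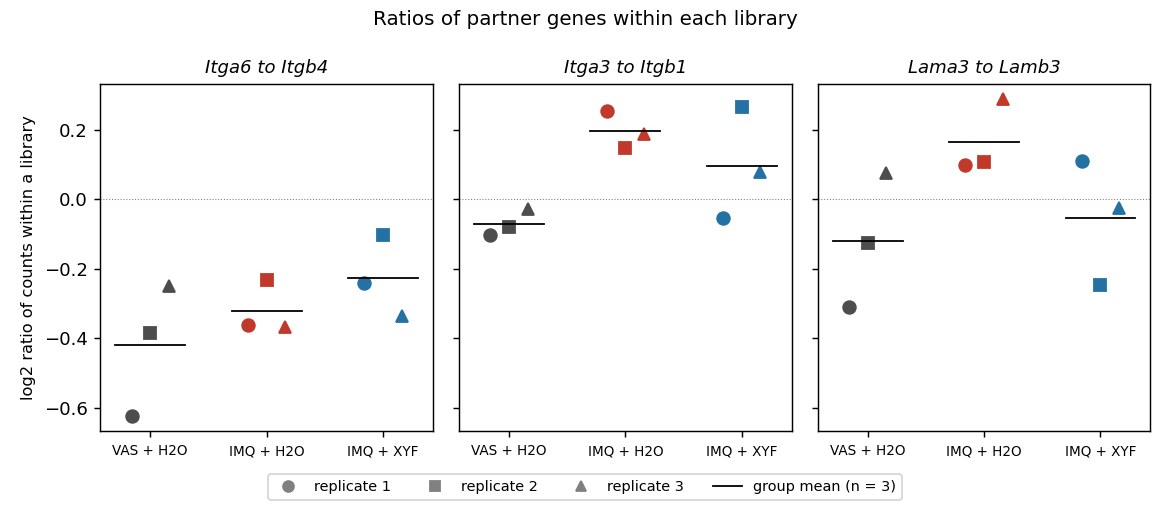
The y axis gives the log2 ratio of the counts of 2 genes within 1 library, and the x axis the groups. Symbols are libraries and lines are group means (n = 3). The ratios of Itga3 to Itgb1 and of Lama3 to Lamb3 do not overlap between VAS + H2O and IMQ + H2O, and the ratio of Itga6 to Itgb4 overlaps in all groups.

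The second comparison asked whether XYF moved these genes in epidermis treated with imiquimod. None of the 9 members passed the test between IMQ + XYF and IMQ + H2O, every adjusted p by edgeR was 0.9999, none had an unadjusted p under 0.05, and for every member the libraries of the groups overlapped. Few genes passed in this comparison at all, with 0.0281% of 17793 higher and 0% lower, and 966 at an unadjusted p under 0.05. The same 0.0281% were DEGs, and the groups did not overlap for 10.7% of all genes. DESeq2 called 152 genes higher and 13 lower, and no member. The log2 fold changes of the members lay between -0.27 and 0.06. Dst was the lowest of them, with 826, 755 and 756 CPM in IMQ + XYF against 891, 1176 and 756 in IMQ + H2O, and a 95% interval of -0.65 to 0.11. For Lamb3 the interval was -0.22 to 0.31, for Col17a1 -0.39 to 0.24, for Lama3 -0.58 to 0.25, for Itga3 -0.56 to 0.31 and for Itgb1 -0.54 to 0.52. Intervals of this width do not show that XYF left the genes alike. The 3 partner ratios differed by -0.22 to 0.09 between these groups, with exact two-sided permutation p of 0.3 to 0.5.

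**Figure D3:**
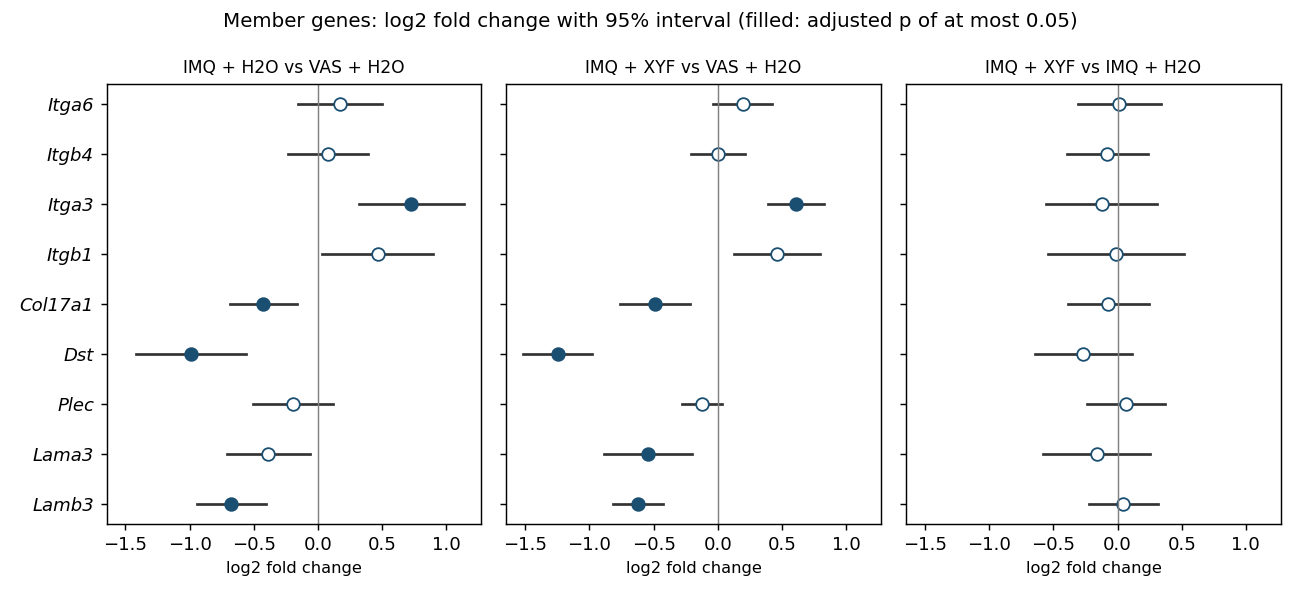
The x axis gives the log2 fold change of each gene, with its 95% interval as a line, in the 3 comparisons, and the y axis the genes. Filled points have an adjusted p of at most 0.05. Itga3 is filled on the right and Dst, Col17a1 and Lamb3 on the left in both comparisons with VAS + H2O, Lama3 only in that of IMQ + XYF, and no point is filled between IMQ + XYF and IMQ + H2O.

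The third comparison set IMQ + XYF against the same controls, with which it shares the VAS + H2O libraries of the first, so it is not separate evidence on imiquimod. Of all 17954 genes tested, 16.7% passed as higher and 12% as lower. Of the members, Itga3 rose and Col17a1, Dst, Lama3 and Lamb3 fell. Dst had a log2 fold change of -1.25 (SE 0.11, adjusted p = 0.00102 by edgeR), a 2.37-fold fall, and was the one member that was a DEG, as 7.64% of all genes were. Its libraries, 826, 755 and 756 CPM, were close together and all far below the controls. Lamb3, with 161, 141 and 159 CPM, fell by 0.62 on the log2 scale (adjusted p = 0.00296). Lama3, with 173, 119 and 157 CPM, fell by 0.54 (adjusted p = 0.0319), and Col17a1, with 1855, 2393 and 1917 CPM, by 0.49 (adjusted p = 0.0215). Itga3, with 251, 215 and 266 CPM, rose by 0.61 (adjusted p = 0.00436). Itgb1, with 261, 179 and 252 CPM, had a log2 fold change of 0.46 and just missed the threshold (adjusted p = 0.0503), and without IMQ + XYF replicate 2, the lowest of its group, the adjusted p was 0.00534.

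Itga6, Itgb4 and Plec did not pass against VAS + H2O in the XYF group either, with log2 fold changes of 0.19, 0.003 and -0.12. With upper-quartile factors the value of Itgb4 was -0.063. The groups did not overlap for 7 members, the 6 named above and Plec, and for 46.8% of all genes. The calls of Dst, Itga3 and Lamb3 held with any library left out. That of Lama3 was lost in 5 of 6 such fits, held only without IMQ + XYF replicate 1, and that of Col17a1 in 4 of 6, held only without VAS + H2O replicate 3 or IMQ + XYF replicate 2. All controls held fibroblast and cartilage markers, and VAS + H2O replicate 2 had the highest sums of these and of muscle markers. Without this library the adjusted p by edgeR was 0.00452 for Dst, 0.00973 for Lamb3, 0.0167 for Itga3, 0.0532 for Col17a1 and 0.0653 for Lama3. In the first comparison the same omission gave 0.0424 for Lamb3, 0.0818 for Itga3 and 0.0942 for Col17a1. The median log2 fold change was -0.12 over the members and -0.04 over all genes tested.

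Since the members are made in basal cells, their reads were also set against those of the basal keratins Krt5 and Krt14 in the same library, as a description. In a bulk sheet, fewer cells of a type and less RNA per cell cannot be told apart. Krt14 rose after imiquimod, from 5069 to 6901 CPM in VAS + H2O to 9064 to 11591 in IMQ + H2O (log2 fold change 0.72, adjusted p = 0.0227 by edgeR), and without VAS + H2O replicates 1 or 2 its adjusted p was 0.0722 and 0.0586. Per 1000 reads of the 2 keratins, Dst fell from 140 ± 19.0 in VAS + H2O to 50.7 ± 15.5 in IMQ + H2O and 39.3 ± 2.17 in IMQ + XYF (SD, n = 3) and Col17a1 from 222 ± 46.1 to 116 ± 23.5 and 104 ± 12.6. Lamb3 went from 18.1 ± 3.33 to 7.94 ± 1.19 and 7.76 ± 0.739, and Lama3 from 16.5 ± 1.79 to 8.89 ± 1.19 and 7.56 ± 1.52. On this scale Plec too was lower, at 52.5 ± 7.47, 32.6 ± 8.39 and 31.8 ± 0.352, without overlap between the controls and the other libraries. Itga6 stood at 30.03, 23.8 and 22.8 and Itgb4 at 40.4, 29.6 and 26.7, also without overlap, whereas Itga3 at 12.2, 14.0 and 12.4 and Itgb1 at 12.9, 12.3 and 11.7 overlapped with the controls. The denominator takes 2 of the 5 listed basal markers. Krt15 of the same list fell by 2.10 on the log2 scale (adjusted p = 0.00575 by edgeR), so the ratios hold for the keratins chosen. A gene of unchanged CPM falls on this scale where the keratins rise. Itga6 was lower on it although its mean CPM was 395, 450 and 452 in the 3 groups. The share of all genes without overlap on this scale was not computed, so the lack of overlap does not set these members apart.

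**Figure D4:**
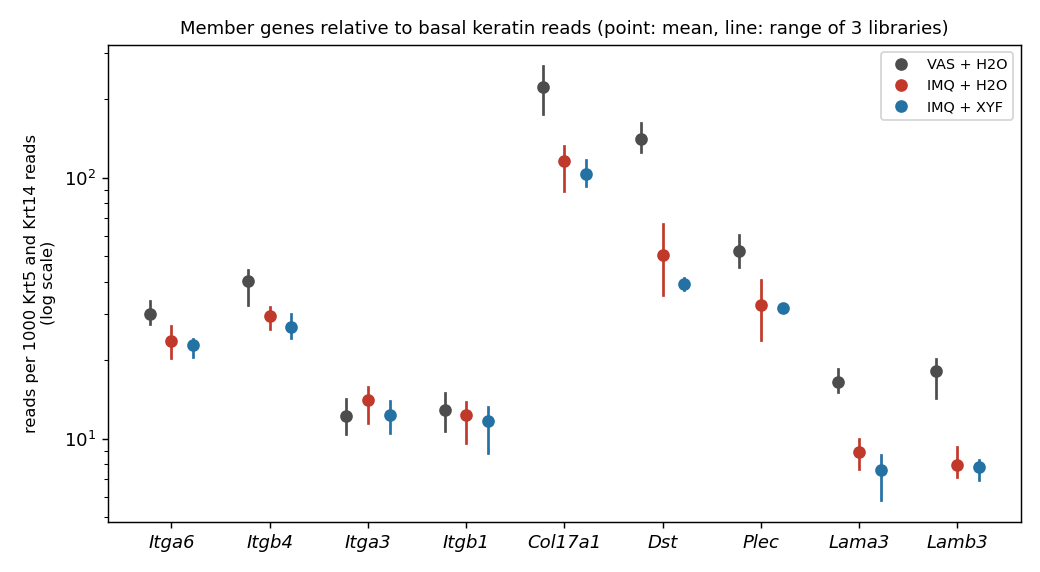
The y axis, on a log scale, gives reads of each gene per 1000 reads of Krt5 and Krt14 in the same library, and the x axis the genes. Points are group means and lines the range of 3 libraries. The ranges of Itga3 and Itgb1 overlap between the groups. For the other genes the range in VAS + H2O lies above those of both imiquimod groups. The mean CPM of both keratins was itself higher in the imiquimod groups, and the share of all genes without overlap on this scale was not computed.

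The rest of the dermal-epidermal junction was examined with a list of 21 other genes, of which 20 could be tested. After imiquimod 8 of them fell and 0 rose, beside 9.41% and 12.7% of all genes tested. An unadjusted p under 0.05 by edgeR was found for 13 of them and for 6823 of all 18009 genes, and the median log2 fold change was -0.62. Col7a1, the collagen of the anchoring fibrils, had 299, 287 and 296 CPM in VAS + H2O and 160, 178 and 136 in IMQ + H2O, and fell by 0.91 (adjusted p = 0.00668). Frem2, part of the Fraser complex under the basement membrane, fell by 1.63 (adjusted p = 0.0150). Col4a6 and Col4a2, chains of collagen IV, fell by 1.36 and 1.51 (adjusted p = 0.0182 and 0.0237). The other listed chains, named after their values were seen, had log2 fold changes of -1.16 (Col4a5, adjusted p = 0.0273) and -0.02 (Col4a1, adjusted p = 0.973). Nid2, a nidogen, fell by 1.97 (adjusted p = 0.0208). Nid2 and Col4a2 were highest in VAS + H2O replicate 2, at 12.3 and 26.0 CPM against 4.72 to 4.88 and 11.5 to 13.0 in the other controls, the library with the highest fibroblast sum, and the part of dermal cells was not tested. With 1 library left out Col7a1 kept its call, Frem2 lost it without IMQ + H2O replicate 1 (adjusted p = 0.0507), Nid2 and Col4a2 without any 1 of the IMQ + H2O libraries (0.0523 to 0.0744) and Col4a6 without IMQ + H2O replicate 1 or VAS + H2O replicates 1 or 2 (0.0569 to 0.0617). Cd151, a tetraspanin of hemidesmosomes, had a log2 fold change of 0.21 (adjusted p = 0.0795).

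Against VAS + H2O, IMQ + XYF had 1 gene of this list higher and 8 lower, beside 16.7% and 12% of all genes tested. The median log2 fold change was -0.53. Cd151 rose by 0.28 (adjusted p = 0.0246 by edgeR), from 65.02 to 72.9 CPM in the controls to 82.4 to 87.6, a call lost without any 1 of the IMQ + XYF libraries or VAS + H2O replicate 2 (0.0559 to 0.0723). Col7a1 fell by 0.97 (adjusted p = 0.00113), Col4a6 by 1.66 (adjusted p = 0.000636), Col4a5 by 1.28 (adjusted p = 0.000853) and Lama5, the α chain of laminin 511, by 0.64 (adjusted p = 0.00679). Fras1, the partner of Frem2, fell by 1.89 (adjusted p = 0.00173). Between IMQ + XYF and IMQ + H2O, 0 of 19 junction genes passed. An unadjusted p under 0.05 by edgeR was found for 6 of them and for 966 of all 17793 genes. The 6, named after their values were seen, had log2 fold changes of 0.89 (Nid2), 0.83 (Col4a2), 0.46 (Hspg2), 0.26 (Lamb2), -0.55 (Grip1) and -1.18 (Fras1). Those of Cd151 and Col7a1 were 0.06 and -0.07.

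Among 22 other integrins and focal adhesion genes, 3 rose and 2 fell after imiquimod, beside 12.7% and 9.41% of all genes tested. Their median log2 fold change was 0.03. Itgb6, the β chain of αvβ6 that keratinocytes make in wounds, had 3.77, 5.10 and 4.90 CPM in VAS + H2O and 12.3, 15.7 and 18.9 in IMQ + H2O, and rose by 1.76 (adjusted p = 0.00688 by edgeR). Cd44, the hyaluronan receptor, rose by 1.38 (adjusted p = 0.00810), from 181 to 242 CPM to 458 to 695. Itgb5 fell by 0.81 (adjusted p = 0.0118), and Fermt1, the kindlin of keratinocytes that activates β1 integrins, fell by 0.57 (adjusted p = 0.0158), and without IMQ + H2O replicate 1 or VAS + H2O replicates 1 or 2 its adjusted p was 0.0503 to 0.0577. Vcl, vinculin of focal adhesions, rose by 0.41 (adjusted p = 0.0262). Against VAS + H2O, IMQ + XYF had 4 of these genes higher and 2 lower, beside 16.7% and 12% of all genes tested. The higher ones beside Cd44 and Itgb6 were Vcl and Actn1, at 0.47 each, which together with Vcl above were named after their values were seen. Cd44 and Itgb6 were higher by 1.36 and 1.68 (adjusted p = 0.000951 and 0.00136) and Itgb5 and Fermt1 lower, at -0.81 and -0.63 (adjusted p = 0.00148 and 0.00211). Between IMQ + XYF and IMQ + H2O, 0 of 22 passed. An unadjusted p under 0.05 by edgeR was found for 2 of them and for 966 of all 17793 genes.

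Of the keratins and linkers that meet the hemidesmosome on its inner side, 9 genes were listed and 8 found by symbol. After imiquimod 1 of the 8 rose and 1 fell, beside 12.7% and 9.41% of all genes tested. After imiquimod Krt14 rose, as given above, and Krt15, a keratin of resting basal cells and of the hair follicle, had 2209, 1962 and 2681 CPM in VAS + H2O and 471, 712 and 430 in IMQ + H2O, a fall of 2.10 on the log2 scale (adjusted p = 0.00575 by edgeR). Against VAS + H2O, IMQ + XYF gave 0.76 for Krt14 (adjusted p = 0.00651) and -1.79 for Krt15 (adjusted p = 0.000789). These were the 1 higher and 1 lower gene of the list, beside 16.7% and 12% of all genes tested. Of 11 tested protease genes, Tll1 and Bmp1, which process laminin chains and procollagen VII, fell by 1.26 and 0.52 after imiquimod (adjusted p = 0.0158 and 0.0224). None rose, beside 9.41% of all genes lower and 12.7% higher. Both calls were lost without IMQ + H2O replicate 1 (0.0525 and 0.0778) or VAS + H2O replicate 2 (0.0536 and 0.0768), and that of Bmp1 also without IMQ + H2O replicate 3 or VAS + H2O replicate 1. In IMQ + XYF against VAS + H2O, Tll1, Bmp1 and Mmp14 fell by 1.57, 0.54 and 0.49 (adjusted p = 0.000951, 0.00665 and 0.00329). Adam17 rose by 0.61 (adjusted p = 0.0347), a call that, with 1 library left out, held only without VAS + H2O replicate 2. Of all genes tested there, 12% were lower and 16.7% higher. Between IMQ + XYF and IMQ + H2O, 0 genes of these 2 lists passed and 0 had an unadjusted p under 0.05.

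Likeness of pattern over the 9 libraries was measured as the root mean square difference of log2 CPM, each gene centred on its own mean, among 18491 other genes. Partners were not the nearest genes to each other. The nearest member to Itgb1 was Itga3, in place 13 (0.14 on the log2 scale), and to Itga3 it was Itgb1, in place 75. Lamb3 was in place 92 for Lama3, Itgb4 in place 361 for Itga6, and Plec in place 1626 for Col17a1. The 2 nearest genes of all were Rfwd3 and Ago2 for Itga6, 2700062C07Rik and Zdhhc23 for Itgb4, Entpd7 and Isy1 for Itga3, Prrg4 and Actn1 for Itgb1, Fuca1 and Hephl1 for Col17a1, Guca2a and Lysmd1 for Dst, Rab5a and Znrf2 for Plec, P3h2 and Dll1 for Lama3, and Zfp866 and Dnase1l1 for Lamb3. The smallest of these differences was 0.056 (Plec to Rab5a) and the largest 0.12 (Itgb1 to Actn1, and Dst to Lysmd1).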

How the data were processed

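The authors prepared TruSeq libraries from total RNA of epidermal ear sheets, aligned the reads to GRCm38 with STAR (2.5 in the submitters' processing notes, which also list FastQC, Cuffnorm and DESeq 1.22.1) using the annotation of Ensembl release 90, and deposited whole-number counts per gene without normalization. The counting tool and its strand setting are not given in the sources used here. The labels call the libraries strand-specific, which the methods of the study, naming the kit, do not state. Whether reads of genes on the opposite strand entered the counts is therefore not known. Exons of Plec share 205 bases with Parp10 on the same strand, and those of Dst, Itgb4 and Lama3 share at most 1037, 537 and 197 bases with a noncoding gene on the opposite strand.

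Calculations used R 4.3.3, edgeR 4.0.16 (TMM, filterByExpr, glmQLFit and glmQLFTest, each pair of groups fitted on its own 6 libraries) and DESeq2 1.42.0. Standard errors were derived from the test statistic. Log2 CPM for likeness used a prior count of 2. Intervals are 95%. The fits were tested on simulated data. Positions and exon lengths are from GENCODE M21 on GRCm38. Of other genes, Cd151 and Col7a1 were named always and, from each list, up to 4 that pass by smallest adjusted p. Of the listed genes, 1 was left out and is not reported here. The members, lists and tests were chosen with earlier results of these data known. Libraries with the same replicate number did not deviate together (correlations -0.13 to 0.11), so the numbers were not used as pairs. Alternatives were DESeq2, RLE and upper-quartile factors, 1 fit over all 9 libraries, a replicate block, a minimum of 10 counts in each library or no filter, a cartilage and fibroblast score as covariate, and each library left out.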

Additional observations from a re-analysis of the deposited data

How the results depend on the processing

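With RLE factors, all 9 libraries in 1 fit and no low-count filter, the counts of members that pass were within 1.5 times those given above, although Col17a1 lost its call in IMQ + H2O without the filter (adjusted p = 0.0700). The replicate block changed no call of a member and ended that of Cd151 in IMQ + XYF against VAS + H2O (adjusted p = 0.0619), and upper-quartile factors ended that of Adam17 there (0.0522). A cartilage and fibroblast score as covariate, which follows the groups, left 0 of all genes higher and 0 lower in IMQ + H2O against VAS + H2O, 0 members and 0 of the other listed genes, with log2 fold changes of -0.90 for Dst, -0.78 for Lamb3, 0.68 for Itga3 and -0.27 for Col17a1, and the cause was not tested. In IMQ + XYF against VAS + H2O the score left the calls of Dst, Lamb3, Itga3 and Col17a1 (adjusted p = 0.00315, 0.00675, 0.0119 and 0.0430) and ended that of Lama3 (0.0573). In IMQ + XYF against IMQ + H2O it gave 0 genes higher and turned the log2 fold changes of Itga3 to 0.43, Itgb1 to 0.36, Itgb4 to 0.59, Plec to -0.12, Cd151 to -0.10 and Col7a1 to 0.28, none passing. Itgb4 turned to -0.10 and -0.043 against VAS + H2O under the score and to -0.063 with upper-quartile factors (IMQ + XYF). At the DEG rule, stricter by construction, 656 genes were higher and 727 lower in IMQ + H2O and 823 and 548 in IMQ + XYF against VAS + H2O, with 0 members higher in both, 0 and 1 lower, and 2 other listed genes higher and 7 lower in both. In IMQ + H2O against VAS + H2O, Dst met this rule with upper-quartile factors (-1.05, adjusted p = 0.0125 by edgeR) and the replicate block (-1.002, 0.0336). It also met it without VAS + H2O replicate 1 (-1.08, 0.0377) or IMQ + H2O replicate 2 (-1.14, 0.0156), and in no other setting. Without a filter 1067 genes were lower in IMQ + H2O. DESeq2 called 152 genes higher and 13 lower in IMQ + XYF against IMQ + H2O, among them 2 and 1 of the other listed genes, and against VAS + H2O 2 members (Itga3 and Itgb1) and 11 other listed genes higher. At least 10 counts in every library also gave 2 members higher there. With the replicate block 0 genes were higher in IMQ + XYF against IMQ + H2O and 1405 lower against VAS + H2O, and 1 was higher in the former with all 9 libraries in 1 fit. On total counts the VAS + H2O means were 166 (Itga3), 175 (Itgb1) and 715 CPM (Plec).

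Without 1 library, IMQ + H2O against VAS + H2O gave 912 to 1960 genes higher and 534 to 1117 lower, 0 to 2 members higher and 1 to 2 lower, and, of the 4 lists of other genes together (4 higher and 13 lower with all libraries), 2 to 6 higher and 3 to 14 lower, the 3 without IMQ + H2O replicate 1, 6 without VAS + H2O replicate 2 and 7 without IMQ + H2O replicate 3 or VAS + H2O replicate 1. IMQ + XYF against IMQ + H2O gave 0 to 4 and 0 to 1 genes, and 0 members. IMQ + XYF against VAS + H2O gave 1975 to 2882 and 1235 to 1662 genes, 1 to 2 members higher and 2 to 3 lower, and 4 to 9 and 12 to 14 other listed genes. The ratio difference of Itga6 to Itgb4 ran from -0.0029 to 0.18 in the first comparison and that of Lama3 to Lamb3 from -0.028 to 0.16 in the third. Log2 fold changes that turned ran from -0.044 to 0.23 and -0.059 to 0.082 (Itgb4 in IMQ + H2O and IMQ + XYF against VAS + H2O) and, in IMQ + XYF against IMQ + H2O, from -0.12 to 0.10 (Itga6), -0.20 to 0.035 (Itgb4), -0.29 to 0.067 (Itga3), -0.20 to 0.18 (Itgb1), -0.056 to 0.20 (Plec), -0.064 to 0.12 (Lamb3) and -0.17 to 0.029 (Col7a1). With 3 libraries a group, a member whose 95% interval spans 0 may have changed by any size within it.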
